A study of Mus musculus with 50 samples.

Results

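The genes described are the receptors through which neurons respond to steroid hormones, together with a co-chaperone. *Nr3c1* encodes the glucocorticoid receptor, *Nr3c2* the mineralocorticoid receptor, *Pgr* the progesterone receptor and *Esr1* estrogen receptor alpha, and with them stands *Fkbp5* (the Hsp90 co-chaperone FKBP51). These 5 genes were taken by symbol from the 55385 genes in the gene tables of a study of mouse spinal motor neuron maturation. Steroid receptors are transcription factors that wait for their ligand in a complex with Hsp90 and its co-chaperones, and that bind DNA once the hormone has arrived. *Nr3c1* and *Nr3c2* both bind corticosterone, the main glucocorticoid of the mouse, and *Nr3c1*, *Nr3c2* and *Pgr* recognise the same DNA element, whereas *Esr1* recognises another. *Fkbp5* lowers the affinity of the glucocorticoid receptor for its hormone and is itself among the genes most readily induced by glucocorticoids.

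RNA-seq covered 28 libraries and ATAC-seq, which maps open chromatin, 22 libraries. In vivo, RNA came from 3 libraries at E10.5, from 2 at E13.5, from 3 at P4, from 2 at P13, from 3 at P21 and at P56 and from 2 at 2 years. In vitro, it came from 2 libraries each at DIV0 and DIV7 (days in vitro), 3 at DIV28 and 3 at DIV28 with tetrodotoxin (TTX), a sodium channel blocker that stops action potentials, at 1 µM throughout the culture. ATAC-seq had 2 libraries of each of the 11 groups. At E10.5 the motor neurons were whole cells sorted from mice with the HB9-GFP transgene (C57BL/6- HB9-GFP). At every later age they were nuclei purified from C57BL/6- Chat-Cre;SUN1-GFP-3xMYC mice, and spinal cords of several animals were pooled. In these mice Cre from the *Chat* locus labels the nuclear envelope of all cholinergic neurons of the cord. For RNA the nuclei were bound to beads, from brachial and lumbar cord. The paper reports lower purity of these at E13.5 and P4, with some blood vessel contamination. For ATAC-seq they were sorted by fluorescence, from brachial, thoracic and lumbar cord, at high purity at all ages. RNA and peaks of the same age thus come from separate preparations. The cultures were motor neurons made from 1 embryonic stem cell line of the same Chat-Cre;SUN1-GFP-3xMYC background, grown on cortical astrocytes in a medium with serum and the B27 supplement, whose formulation includes corticosterone and progesterone, and their nuclei were purified in the same way. Sample preparation therefore changes together with age from E10.5 to E13.5, and the 2 cannot be told apart.

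The RNA library titled DIV0 replicate 3 was used as DIV28 replicate 3, as the working rule for these genes states, and the study's sample list pairs it with TTX replicate 3. For the receptors and *Fkbp5*, where tested, the log2 fold changes from DIV7 to DIV28 and of DIV28 against P21 are also given without it. In the contrast of changes between culture and spinal cord this holds for *Nr3c1* and *Pgr*, and with TTX for *Pgr*. The other TTX fold changes, the mean TPM at DIV28 and the results of the gene lists at DIV28 are given with it. The totals of the libraries ranged from 2704682 to 21823500 expected counts, RSEM's estimate of reads per gene. All 6 motor neuron markers (*Chat*, *Slc5a7*, *Slc18a3*, *Isl1*, *Mnx1*, *Prph*) were detected in every group. Markers of other cells were not absent. The summed level of 6 endothelial markers was 13255 and 24988 normalised counts in the E13.5 libraries and 5654 to 7726 at P4, against 34.97 to 78.74 at P21 and 9.148 to 229.3 in all cultures, and that of 7 erythroid markers was 16298 and 18089 at E13.5 against 1138 to 1541 at P4 and at most 385.3 from P13 on. In E13.5 replicate 1 the motor neuron markers summed to 2832 normalised counts and in replicate 2 to 1510. In such purified pools fewer cells of a type and less RNA per cell cannot be told apart.

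Levels are given as normalised counts, that is expected counts divided by a size factor per library (the median of ratios over all 28 libraries), and as TPM (transcripts scaled to the same total in each library, which also divides by transcript length) where genes are set against each other. Changes are log2 fold changes from edgeR's quasi-likelihood test on the rounded counts, with their standard error (SE), and p was adjusted by Benjamini-Hochberg over all genes of the fit. A gene was called at an adjusted p under 0.05. All 5 genes passed the filter on low counts in vivo (15030 genes tested) and all but *Esr1* in vitro (12890 genes tested). By mean TPM, *Fkbp5* was the most abundant of the 5 at E10.5 (27.1 ± 6.18, SD, n = 3), where the 4 receptors lay between 0.0233 and 0.627. At P21 *Nr3c2* led with 24.8 ± 1.65 TPM, followed by *Fkbp5* (10.9 ± 2.72), *Pgr* (5.97 ± 0.441), *Nr3c1* (4.72 ± 0.904) and *Esr1* (1.24 ± 0.512, n = 3 for all). At DIV28 the order was *Pgr* (5.94 ± 0.786 TPM), *Fkbp5* (2.76 ± 1.5), *Nr3c1* (2.21 ± 0.544), *Nr3c2* (1.26 ± 0.237) and *Esr1* (0.17 ± 0.0625, n = 3). The 4 receptors were thus all below 1 TPM in newborn motor neurons, and the mineralocorticoid receptor was the highest of them in the spinal cord from P4 on but not in culture.

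**Figure D1:**
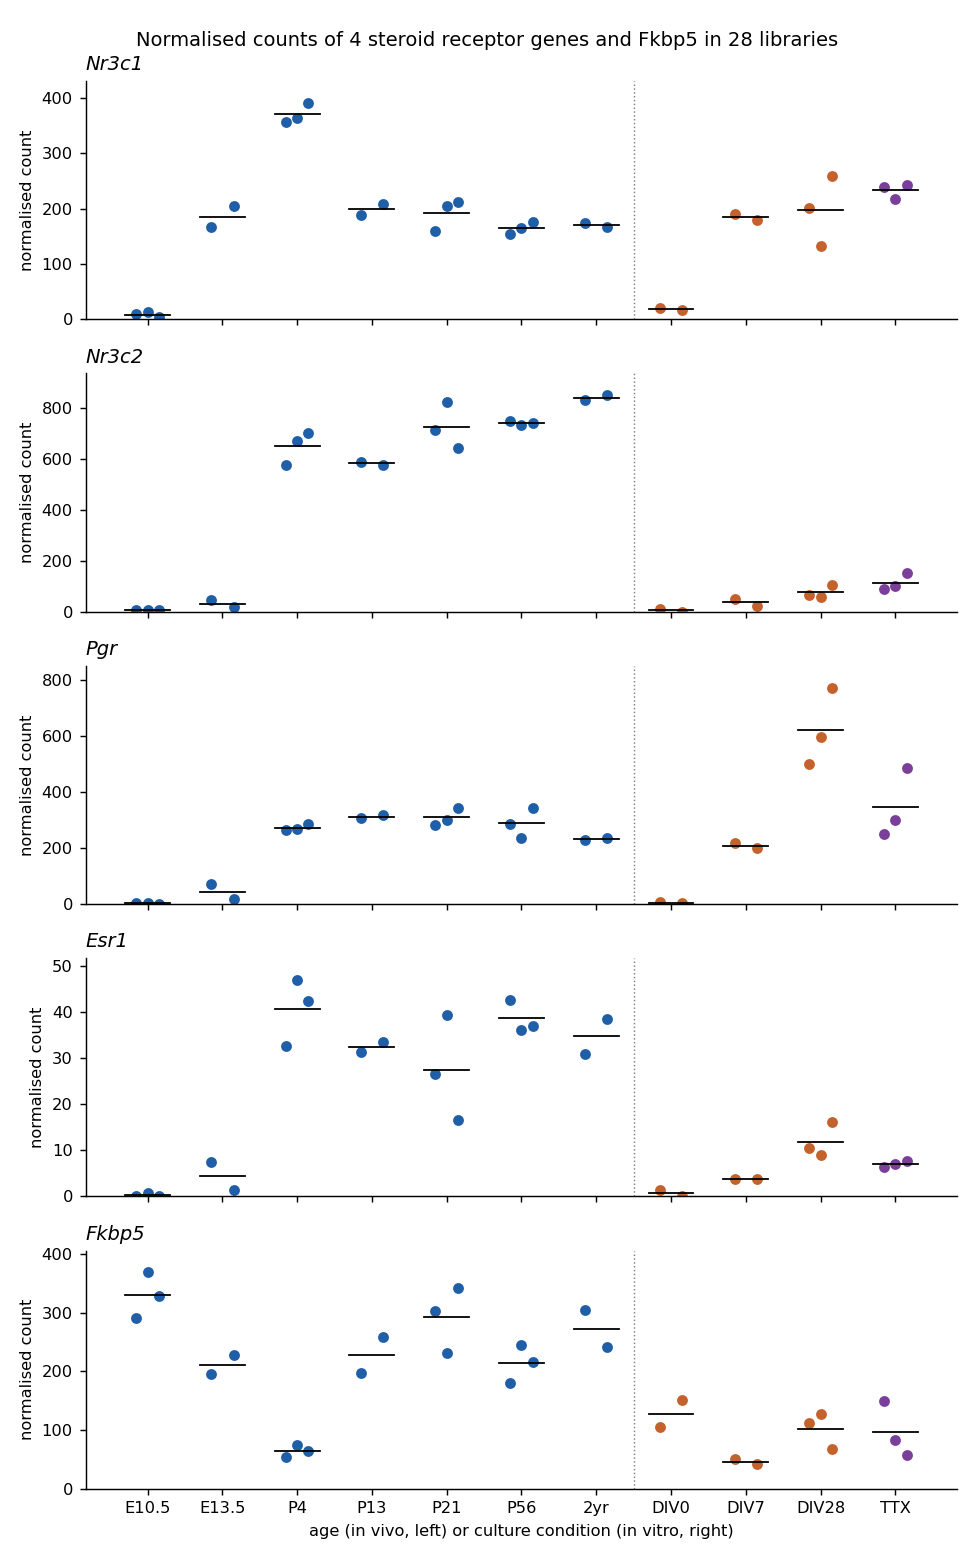
Normalised counts (y axis, linear, from 0) of the 5 genes in each RNA library (points) with the mean of each group (bar), by age in vivo (left of the dotted line) and by culture condition (right). *Nr3c2* sits between 574.7 and 850.6 in every library from P4 to 2 years and between 0 and 150.2 in every culture, and *Fkbp5* is lowest in vivo at P4 with 53.85 to 74.22.

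Near these genes, ATAC peaks of the 22 libraries merged into 327 regions with a summit inside a gene or within 20 kb of it, of 565983 regions in all: 22 at *Nr3c1*, 145 at *Nr3c2*, 28 at *Pgr*, 88 at *Esr1* and 44 at *Fkbp5*. Peaks are described by the libraries that hold them and by their fold enrichment over the background of the same library, with no test, since the deposited lists hold peaks and no read counts. A region was counted as gained or lost where both libraries of 1 group and neither of the other held it. From E13.5 to P21, 43 of the 327 regions (13.1%) were gained, against 8.99% of all regions, and 18 (5.5%) were lost, against 9.13% of all regions. The count gained was 20 with only the 100000 highest peaks of each library. The count lost was 10 with those peaks and 31 without E13.5 replicate 2. Leaving out a library can only keep or raise a count of regions, since fewer libraries then have to meet the rule. The E13.5 libraries held 179718 and 156485 peaks in all and the P21 libraries 163235 and 189868. The E10.5 and DIV0 libraries held 80386 to 97002, the P4 libraries 115517 and 96168 and the DIV7 libraries 95519 and 122751. Counts of regions at E10.5, P4, DIV0 and DIV7 thus stand on fewer peaks. The part of these totals in peaks missing from those groups was not tested. In the 201 bases around each summit, the glucocorticoid response element was searched as the full palindrome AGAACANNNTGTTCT and as the looser core GNACANNNTGTNC, which the palindrome contains, on both strands, with N for any base. The full palindrome was in 0 of the 327 regions, and 47 of all 565983 regions held it. The core was in 6 of the 327 (1.83%), against 0.501% of all regions, 2 each at *Nr3c2*, *Esr1* and *Fkbp5*. The hexamer TGTTCT, an arm of the palindrome, was in 62 (19%, against 18.2% of all regions). The estrogen response element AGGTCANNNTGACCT was in 0 of the 327 and in 33 of all regions, and its arm TGACCT was in 40 (12.2%, against 14.4%). A match of letters is a description and not a binding site.

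*Nr3c1*, at chr18:39410545-39519421 on the minus strand (GRCm38, the build of the files, ENSMUSG00000024431), was nearly silent in newborn motor neurons, was present by E13.5 and was highest at P4. The E10.5 libraries held 8.4, 12.4 and 3.81 normalised counts and the E13.5 libraries 167 and 204. At P4 the level was 357, 365 and 392, at P13 188 and 209, and at P21 160, 205 and 211. It was 154, 165 and 176 at P56 and 175 and 168 at 2 years. The E10.5 libraries all lay below every other library in vivo and the P4 libraries above every other. Markers of other cells rose and fell over the same ages. The sum of 6 endothelial markers was 5.345 to 19.36 normalised counts at E10.5, 13255 and 24988 at E13.5, 5654 to 7726 at P4 and 349.6 and 522.7 at P13, and that of 7 pericyte and fibroblast markers 77.04 to 124.5, 2689 to 3553, 2695 to 4363 and 496.3 to 684.2. The sum of 8 astrocyte markers was highest in vivo at P4, at 3041 to 3719. Their part in the level of *Nr3c1* was not tested. From E10.5 to E13.5 the log2 fold change was 4.32 (SE 0.25, adjusted p = 1.67e-10, n = 3 and 2), from E13.5 to P4 1.14 (SE 0.20, adjusted p = 7.84e-05) and from P4 to P13 -0.81 (SE 0.20, adjusted p = 0.00444). Without P13 replicate 1 the last step was -0.76 and missed the threshold (adjusted p = 0.0573). The P4 mean was 1.93 times that of P21, so that over the span from E13.5 to P21 the net change was small and not called (log2 0.19, SE 0.20, adjusted p = 0.384), and it was -0.06 with no filter on low counts. In the order of levels in vivo and in vitro, P4 stood first with no overlap, and from P13 down to DIV7 the neighbouring groups (P13, DIV28, P21, E13.5, DIV7) overlapped.

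Of the 22 regions at *Nr3c1*, 2 were gained (9.09%, against 8.99% of all regions) and 1 was lost (4.55%, against 9.13%) from E13.5 to P21. A single region was open in all 22 libraries, the peak at an internal start site 29455 bp into the gene (fold enrichment 5.11 to 10.3), so that this start site was open at E10.5 as well, where the RNA was low. A region 2344 bp upstream of the 5′ end was held by all 8 libraries from P13 to 2 years (fold 2.73 to 5.67), by both E13.5 libraries (9.62 and 6.99), by 1 of 2 at P4 and by none of the 8 culture libraries. A region 2160 bp inside the gene was held by both E13.5 libraries (10.7 and 7.46), 1 of 2 at P4 and all 6 libraries from DIV7 on (4.78 to 9.75) but none from P13 to 2 years.

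*Nr3c2*, at chr8:76899442-77245012 on the plus strand (ENSMUSG00000031618), had the largest log2 change of the 5 genes between E13.5 and P4 and no called change after that to 2 years. It stood at 4.58, 7.61 and 6.1 normalised counts at E10.5 and 44.3 and 18.5 at E13.5. At P4 it was 577, 671 and 700, at P13 589 and 575, and at P21 713, 823 and 642. At P56 it was 747, 733 and 740 and at 2 years 831 and 851. No library before P4 overlapped any library from P4 on, and the groups from P4 to P56 overlapped their neighbours in the order of levels. The log2 fold change was 2.08 from E10.5 to E13.5 (SE 0.34, adjusted p = 3.05e-05) and 4.62 from E13.5 to P4 (SE 0.27, adjusted p = 4.88e-10), which is 24.6-fold. None of the 4 later steps was called (log2 between -0.07 and 0.26, adjusted p 0.455 to 1). From E13.5 to P21 the log2 change was 4.78 (SE 0.27, adjusted p = 5.48e-11). E13.5 replicate 1 was higher than replicate 2, and without replicate 1 or 2 the step to P4 was 5.27 or 4.02, the step from E10.5 1.43 or 2.67 and the span to P21 5.43 or 4.19, all called. RSEM was run without use of strand, and 247 exon bases of *Nr3c2* overlap the antisense noncoding gene *Gm10649*, whose reads there cannot be told apart from those of *Nr3c2*.

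Of the 145 regions at *Nr3c2*, 24 were gained from E13.5 to P21 (16.6%, against 8.99% of all regions) and 6 were lost (4.14%, against 9.13%), and 9 regions were held by all 8 libraries from P13 to 2 years and by none of the 4 embryonic libraries, a pattern that 2.58% of all regions have. Both libraries shared 5 regions at E10.5, 19 at E13.5, 12 at P4, 25 at P13, 33 at P21, 21 at P56 and 30 at 2 years. The share of all regions held by both libraries of an age was not counted. Peak totals also differed, with 80386 and 97002 at E10.5, 115517 and 96168 at P4 and 163235 and 189868 at P21. Their part in these counts was not tested. The peak at the start site, 2712 bp inside the annotated gene, was in all 22 libraries (fold 5.67 to 15.7). An intronic region 290076 bp into the gene was in none of the embryonic libraries and in all 8 from P13 on (4.18 to 8.29). The core of the response element lay in the intronic region 302615 bp into the gene, which was held by all 6 libraries from DIV7 on (fold 3.96 to 7.98), by both libraries at E13.5 (3.63 and 3.01) and at P4 (2.7 and 2.74) and by only 1 library each at P21 and P56 (2.15 and 2.06). It is shown because it is the match with the widest presence at this gene, from the plus strand of GRCm38, 5′ to 3′, with the core in capitals.
Nr3c2 intronic region, chr8:77201957-77202157: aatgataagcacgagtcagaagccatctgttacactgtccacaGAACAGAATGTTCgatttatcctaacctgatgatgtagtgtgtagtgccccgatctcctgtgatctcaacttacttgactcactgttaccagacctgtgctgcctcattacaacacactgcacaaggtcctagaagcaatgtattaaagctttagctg

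*Pgr*, at chr9:8899833-8968611 on the plus strand (ENSMUSG00000031870), rose in the same steps as *Nr3c2* in vivo, and from P4 on stood at a lower TPM. It was 3.05, 3.46 and 1.53 normalised counts at E10.5 and 71.1 and 16.3 at E13.5. At P4 it was 263, 267 and 285, at P13 305 and 318, and at P21 283, 300 and 343. At P56 it was 285, 236 and 341 and at 2 years 227 and 237. All libraries from P4 on lay above all embryonic ones, and P13, P21, P56 and P4 overlapped in order, with 2 years below P4. The log2 change was 3.68 from E10.5 to E13.5 (SE 0.55, adjusted p = 1.2e-05), 2.91 from E13.5 to P4 (SE 0.37, adjusted p = 2.8e-06) and 3.09 from E13.5 to P21 (SE 0.38, adjusted p = 8.06e-07). The sizes turn on the E13.5 libraries, of which replicate 1 was again the higher. Without replicate 1 or 2 of E13.5 the log2 change was 2.40 or 4.50 from E10.5, 4.19 or 2.09 to P4 and 4.38 or 2.27 to P21, all called. The steps from P4 on were not called (log2 between -0.23 and 0.29, adjusted p 0.508 to 0.979).

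At *Pgr* 3 of 28 regions were gained from E13.5 to P21 (10.7%, against 8.99% of all regions) and none was lost (against 9.13%). The peak in its exon near the start was in all 22 libraries (fold 5.51 to 16.1), E10.5 included (7.53 and 9.44). An intronic region 48802 bp into the gene was in all 8 libraries from P13 to 2 years (1.91 to 4.73) and in no other. An intronic region 54971 bp into the gene was in none of the embryonic or P4 libraries, in all 8 from P13 on (1.88 to 4.15) and, with higher enrichment, in all 4 at DIV28 with or without TTX (5.88 to 9.43), but in none at DIV0 or DIV7. Its summit is shown as the region that was gained both with age and in culture at this gene, with the match to the hexamer TGTTCT in capitals.
Pgr intronic region, chr9:8954704-8954904, GRCm38 plus strand: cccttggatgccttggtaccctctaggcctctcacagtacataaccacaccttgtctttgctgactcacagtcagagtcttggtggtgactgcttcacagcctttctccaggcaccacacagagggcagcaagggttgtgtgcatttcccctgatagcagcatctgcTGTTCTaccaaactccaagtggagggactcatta

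*Esr1*, at chr10:4611593-5005614 on the plus strand (ENSMUSG00000019768), was the lowest of the 4 receptors at every age, and its values rest on few reads. Summed over libraries it had 1 count at E10.5, 11 at E13.5, 106 at P4, 97 at P13, 59 at P21, 86 at P56 and 97 at 2 years. In normalised counts it was 0, 0.691 and 0 at E10.5, 7.39 and 1.29 at E13.5, 32.5, 46.9 and 42.4 at P4, 31.4 and 33.4 at P13, 26.6, 39.4 and 16.6 at P21, 42.6, 36.2 and 37 at P56 and 30.9 and 38.5 at 2 years. All libraries from P4 on were above all embryonic ones, and the 5 postnatal groups overlapped their neighbours. The ratio of E13.5 to E10.5 was 13.1, with a 95% interval of 1.9 to 564 that covers counting error only (exact binomial), and edgeR called the step (adjusted p = 0.0114), a call that was lost without E13.5 replicate 1 (adjusted p = 0.188). From E13.5 to P4 the log2 fold change was 3.64 (SE 0.54, adjusted p = 1.42e-05) and from E13.5 to P21 3.08 (SE 0.56, adjusted p = 7.84e-05), and without E13.5 replicate 1 or 2 these were 4.99 or 2.59 and 4.43 or 2.03, all called. The later steps were not called (log2 between -0.32 and 0.48, adjusted p 0.635 to 0.985).

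Of the 88 regions at *Esr1*, 7 were gained (7.95%) and 10 were lost (11.4%) from E13.5 to P21, shares near those of all regions (8.99% and 9.13%), and none was open in all 22 libraries. The peak at its main internal start site, 101081 bp into the annotated gene, was in 20 libraries, all 14 in vivo (fold 2.97 to 13.3), and was missing from replicate 2 at DIV28 and at DIV28 with TTX. These 2 libraries held 152667 and 165926 peaks in all, against 224328 and 217773 in the replicates 1, and the part of that in the missing peak was not tested. An intronic region 114694 bp into the gene was in all 4 embryonic libraries (2.56 to 6.55) and both DIV0 libraries (16.9 and 11.5) and in none of the other 16. It holds a match to the core of the glucocorticoid response element, and is shown because only the youngest neurons of both systems held it, with the core in capitals.
Esr1 intronic region, chr10:4726187-4726387, GRCm38 plus strand: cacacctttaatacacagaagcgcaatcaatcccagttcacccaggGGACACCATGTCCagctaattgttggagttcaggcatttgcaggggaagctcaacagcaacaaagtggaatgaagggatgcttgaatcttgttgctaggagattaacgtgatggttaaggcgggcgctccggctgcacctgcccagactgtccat

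*Fkbp5*, at chr17:28399094-28517527 on the minus strand (ENSMUSG00000024222), took a course unlike that of the 4 receptors, falling from E10.5 to P4 and rising again by P13. The later part of it was shared. Of 15 receptor chaperones described below, 14 fell and 0 rose from E13.5 to P4, where 69.6% of all genes were called. From P4 to P13, 8 rose and 0 fell, where 34.4% were called. It was 291, 369 and 329 normalised counts at E10.5, 195 and 227 at E13.5 and 53.9, 74.2 and 63.6 at P4. It was then 197 and 259 at P13, 302, 232 and 343 at P21, 180, 245 and 215 at P56 and 304 and 242 at 2 years. The P4 libraries were the lowest in vivo and overlapped no other age, while E10.5, P21, 2 years, P13, P56 and E13.5 overlapped in sequence. The log2 fold change was -0.79 from E10.5 to E13.5 (SE 0.20, adjusted p = 0.00164), -1.58 from E13.5 to P4 (SE 0.21, adjusted p = 3.3e-06) and 1.91 from P4 to P13 (SE 0.21, adjusted p = 3.5e-06). The mean at P4 was thus 5.15 times below that of E10.5 and 4.57 times below that of P21. From E13.5 to P21 the change was 0.62 (SE 0.20, adjusted p = 0.00865), a call that was lost without E13.5 replicate 1 (0.51, adjusted p = 0.0649), in a fit of those 2 ages alone (0.46, adjusted p = 0.0854) and with no filter on low counts (0.36, adjusted p = 0.224). At P4, where *Fkbp5* was lowest, *Nr3c1* was at its highest. The sum of 6 oligodendrocyte markers moved as well, from 2051 to 2678 normalised counts at P4 to 11394 and 11466 at P13 and down to 1585 and 1680 at 2 years, and its part in the rise of *Fkbp5* was not tested.

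*Fkbp5* had 5 of its 44 regions open in all 22 libraries. The same held for 1 of 22 at *Nr3c1*, 2 of 145 at *Nr3c2*, 1 of 28 at *Pgr* and 0 of 88 at *Esr1*. The share of all regions open in every library was not counted. From E13.5 to P21 *Fkbp5* gained 7 regions (15.9%, against 8.99% of all regions) and lost 1 (2.27%, against 9.13%). Its highest start site peak, 31346 bp into the annotated gene, had a fold enrichment of 10.6 to 31.5. Both P4 libraries held this peak (13.4 and 13), where the RNA was lowest. The region 635 bp upstream of its 5′ end was open in all 22 libraries (2.66 to 10.8) and holds 1 match to the core of the response element. An intronic region 92986 bp into the gene was in none of the 4 embryonic libraries, weak in both at P4 (2.52 and 2.06), stronger in all 8 from P13 on (4.43 to 6.16), absent at DIV0 and DIV7 and present in all 4 at DIV28 with or without TTX (2.16 to 4). Both windows are shown, the former for its match and the latter because it was absent in the embryonic libraries and its enrichment was higher from P13 on than at P4. Capitals mark the core in the upstream window, and the gained window held neither the core nor the hexamer.
Fkbp5 upstream region, chr17:28518062-28518262, GRCm38 plus strand: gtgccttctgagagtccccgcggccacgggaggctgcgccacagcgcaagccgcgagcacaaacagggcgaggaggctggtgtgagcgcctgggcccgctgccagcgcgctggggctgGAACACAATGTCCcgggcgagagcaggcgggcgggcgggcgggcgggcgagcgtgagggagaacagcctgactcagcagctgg
Fkbp5 gained intronic region, chr17:28424441-28424641, GRCm38 plus strand: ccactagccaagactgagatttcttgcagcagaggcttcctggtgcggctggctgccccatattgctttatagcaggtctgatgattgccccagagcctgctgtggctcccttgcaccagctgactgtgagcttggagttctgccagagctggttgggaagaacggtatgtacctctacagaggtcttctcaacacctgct

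**Figure D2:**
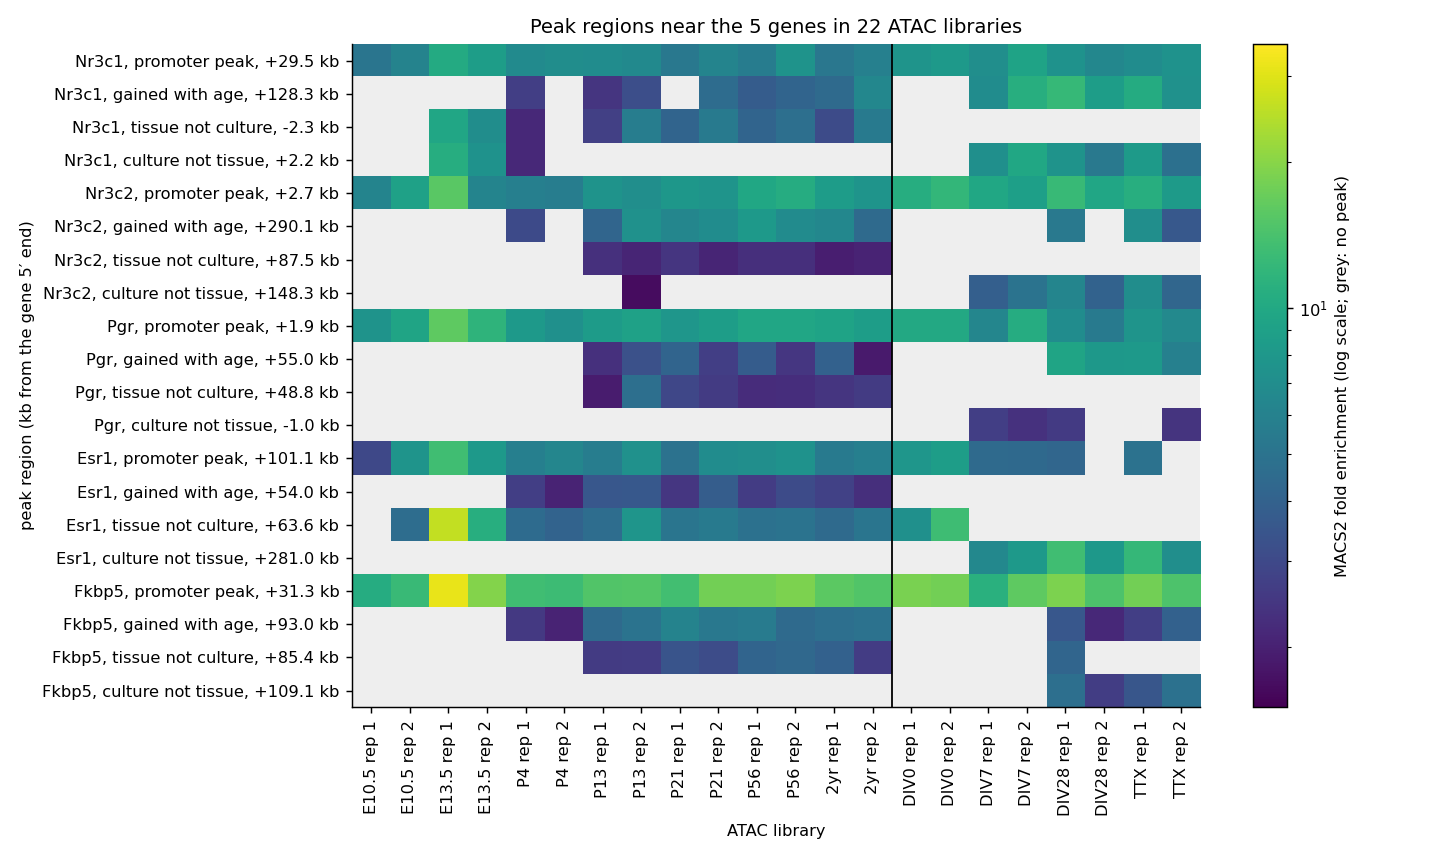
Fold enrichment of the peak (colour, log scale) in each of the 22 ATAC libraries (columns) at the start site peak of each gene and at the region with the largest difference in libraries holding it between early and late ages or between tissue from P13 on and culture from DIV7 on (rows, with the distance of the summit from the 5′ end), grey where the library had no peak. The start site peaks run across all columns but for 2 at *Esr1*, while the regions gained with age are grey at E10.5 and E13.5.

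In counts, all 5 genes were called from E10.5 to E13.5, where 70% of all genes tested were, and all 5 again from E13.5 to P4, where 69.6% were. From P4 to P13, 2 of 5 were called, against 34.4% of all genes, and from E13.5 to P21 4 of 5, against 78.6%. With shares of that size the number of calls says little about these genes. From P13 to P21 edgeR called 0 of 5 (0 at an unadjusted p under 0.05, 0 by DESeq2), against 21.6% of all genes. From P21 to P56 it called 0 of 5 (1 at an unadjusted p under 0.05, *Fkbp5* with log2 -0.46, and 0 by DESeq2), against 0.0532% of all genes. From P56 to 2 years it again called 0 of 5 (1 at an unadjusted p under 0.05, *Fkbp5* with log2 0.42, and 0 by DESeq2), against 0.552%. Consecutive comparisons share the libraries of the age between them, so their changes are not independent of each other. The median log2 fold change of all genes was 0.13 from E10.5 to E13.5 and 0.24 with DESeq2's size factors, and the change of *Fkbp5* there, -0.79, is opposite in sign to both. With those size factors the split of the calls over all genes moved by the most from P13 to P21, to 1492 higher and 1830 lower in place of 1085 and 2160, and from P56 to 2 years, to 36 and 29 in place of 56 and 27. The side with more calls turned from P4 to P13, to 2319 higher and 2742 lower in place of 2753 and 2423, and at DIV28 against P21, to 3919 and 4142 in place of 4120 and 3963.

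**Figure D3:**
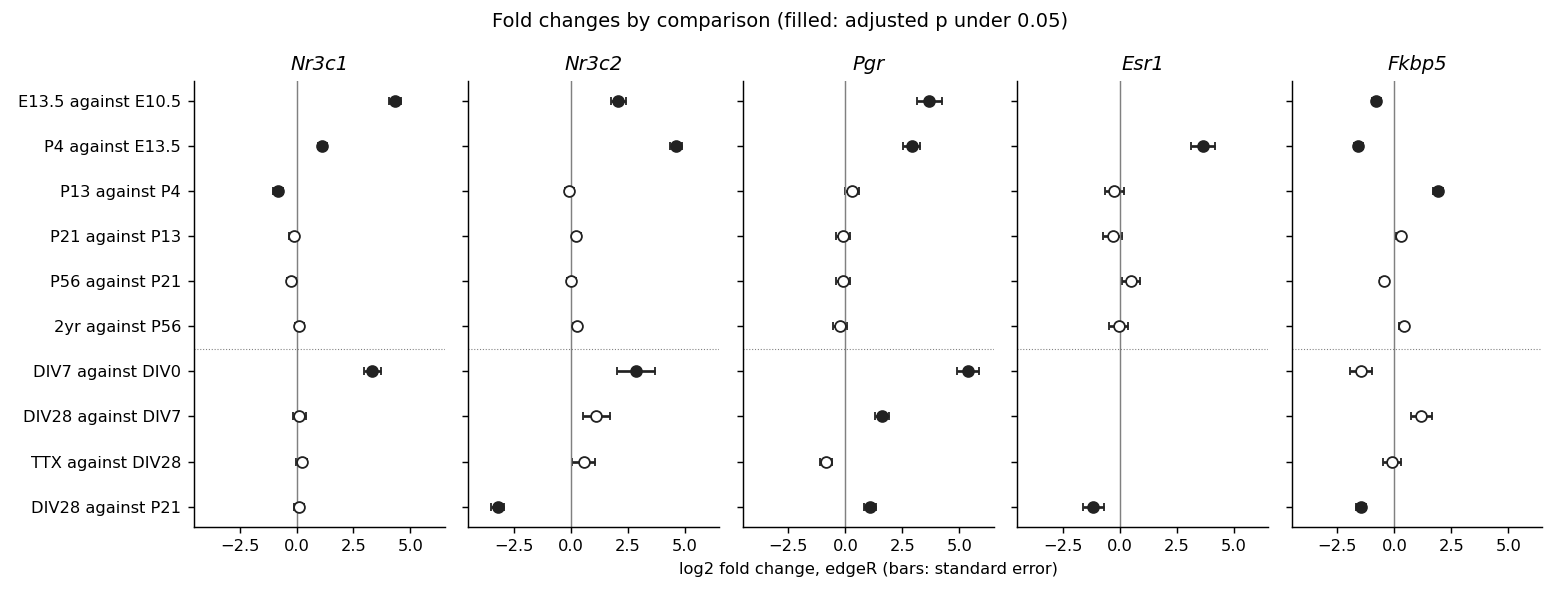
Log2 fold change (x axis) with its standard error (bars) of each gene in each comparison (rows), filled where the adjusted p was under 0.05. Above the dotted line are the steps in vivo and below it the comparisons in and with the cultures. *Esr1* is not drawn for E13.5 against E10.5, where E10.5 had 1 count, nor within the cultures, where it was not tested.

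In culture, *Nr3c1*, *Nr3c2* and *Pgr* all rose from DIV0 to DIV7. *Nr3c1* went from 19.6 and 16.8 normalised counts at DIV0 to 189 and 179 at DIV7, with 202, 133 and 258 at DIV28. *Nr3c2* went from 9.15 and 0 to 50.6 and 21.7, with 64.9, 58.1 and 105 at DIV28. *Pgr* went from 5.23 and 4.59 to 216 and 198, and on to 498, 596 and 772 at DIV28. *Nr3c2* and *Pgr* had no overlap between any of these 3 groups, and *Nr3c1* did between DIV7 and DIV28. From DIV0 to DIV7 the log2 fold change was 3.33 for *Nr3c1* (SE 0.38, adjusted p = 1.08e-04), 2.86 for *Nr3c2* (SE 0.84, adjusted p = 0.0296) and 5.37 for *Pgr* (SE 0.48, adjusted p = 1.93e-05). Thus 3 of the 4 genes tested were called, against 23% of all genes. The call of *Nr3c2* rests on 7 counts at DIV0, all in replicate 1, and on 44 at DIV7 (ratio 6.77, 95% counting interval 3.03 to 17.8), and it was kept without DIV0 replicate 1, where the comparison is with no count at DIV0, and lost without DIV0 replicate 2 (log2 1.93, adjusted p = 0.14) or DIV7 replicate 1 (2.13, adjusted p = 0.174). *Fkbp5* stood at 105 and 151 at DIV0 and 50.6 and 42.1 at DIV7, a log2 change of -1.46 (SE 0.50) just outside the threshold (adjusted p = 0.0523) that DESeq2 called (-1.49, adjusted p = 0.0247).

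From DIV7 to DIV28 only *Pgr* was called (log2 1.61, SE 0.31, adjusted p = 0.00555), 1 of 4, against 17.8% of all genes. Without DIV28 replicate 3 its change was 1.44 (adjusted p = 0.0143), and without DIV7 replicate 2 it was 1.54 and missed the threshold (adjusted p = 0.0668). On the TPM scale its means were 5.26 at DIV7 and 5.94 at DIV28, so that the rise is seen in counts and hardly in TPM, and the mean TPM of *Nr3c1* went from 6.20 to 2.21 and that of *Nr3c2* from 1.66 to 1.26. *Fkbp5*, at 111, 127 and 68.6 normalised counts at DIV28, changed by 1.17 (SE 0.46, adjusted p = 0.0995, and 1.40 with adjusted p = 0.069 without DIV28 replicate 3). *Nr3c2* changed by 1.12 (SE 0.61, adjusted p = 0.227, and 0.82 without that library) and *Nr3c1* by 0.12 (SE 0.29, adjusted p = 0.81, and -0.11 without it). *Esr1* had 1 count in all at DIV0, 5 at DIV7 and 59 at DIV28, and the ratio of DIV28 to DIV7 was 2.92 (95% counting interval 1.18 to 9.31). With the library placed at DIV0, as its title says, none of the 4 genes tested was called from DIV0 to DIV7 or from DIV7 to DIV28. Of all 12890 genes, 18 were then called higher and 13 lower in the former comparison, and 0 either way in the latter.

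Set against the spinal cord at P21, the DIV28 cultures had the glucocorticoid receptor at the same order of level, more progesterone receptor, and less of the other 3, all in normalised counts. *Nr3c2* was lower by a log2 fold change of -3.21 (SE 0.29, adjusted p = 1.22e-08), 9.24-fold, and -3.50 without DIV28 replicate 3. *Fkbp5* was lower by -1.45 (SE 0.22, adjusted p = 1.53e-05, and -1.22 without that library). *Pgr* was higher by 1.07 (SE 0.27, adjusted p = 0.00231, and 0.90 without it). *Esr1* was lower by -1.17 (SE 0.45, adjusted p = 0.0325), with 10.4, 9.04 and 16 normalised counts at DIV28 and 26.6, 39.4 and 16.6 at P21. Its call was kept without DIV28 replicate 3 (-1.44, adjusted p = 0.0194) and lost without P21 replicate 1 or 2 (-1.19 and -0.83, adjusted p = 0.0629 and 0.187) or DIV28 replicate 1 or 2 (-1.12 and -0.97, adjusted p = 0.0642 and 0.111). *Nr3c1* differed by 0.09 (SE 0.22, adjusted p = 0.764), and by -0.15 without DIV28 replicate 3. On the TPM scale its means were 2.21 at DIV28 and 4.72 at P21, so that this likeness holds for normalised counts and not for TPM. The reverse is true of *Pgr*, whose mean TPM was 5.94 at DIV28 and 5.97 at P21. In all, 4 of 5 were called, against 52.1% of all genes.

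The change from DIV0 to DIV28 was then set against the change from E13.5 to P21 in 1 contrast, which tests the difference itself. It was larger in culture for *Nr3c1* by a log2 value of 3.45 (SE 0.40, adjusted p = 2.35e-07) and for *Pgr* by 4.10 (SE 0.65, adjusted p = 1.43e-05), and by 3.22 and 3.92 without DIV28 replicate 3. Without E13.5 replicate 1 or 2 the value of *Pgr* was 2.75 or 4.96, called in both cases. These differences start from unlike levels, since *Nr3c1* stood at 18.2 ± 1.97 normalised counts at DIV0 and at 186 ± 26.2 at E13.5 (SD, n = 2), as did *Pgr* at 4.91 ± 0.453 and 43.7 ± 38.8. At E10.5, in whole cells, *Nr3c1* and *Pgr* stood below DIV0, at 8.22 ± 4.32 and 2.68 ± 1.02 (SD, n = 3). The paper set DIV0 to DIV28 against E10.5 to P21, and a contrast that starts at E10.5 was not tested here. The other 3 were not called, *Fkbp5* with -0.69 (SE 0.35, adjusted p = 0.0916), *Nr3c2* with -0.62 (SE 0.84, adjusted p = 0.536) and *Esr1* with adjusted p = 0.556. Hence 2 of 5 were called, against 63.4% of all genes.

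Open chromatin was then set side by side at P21 and DIV28. Of the 327 regions 30 (9.17%) were in both P21 libraries and in neither DIV28 library, against 7.72% of all regions, and 28 (8.56%) had the reverse pattern, against 9.13%, both near the shares of all regions. Without DIV28 replicate 1 the former count was 47 and without DIV28 replicate 2 the latter was 59, where the rule allows no fall. Among those at DIV28 and not at P21, 13 were at *Esr1*, 8 at *Nr3c2*, 4 at *Nr3c1*, 2 at *Fkbp5* and 1 at *Pgr*. At *Esr1* 4 regions were in all 6 libraries from DIV7 on and in none of the 8 in vivo from P13 on, as 1.4% of all regions were, and 3 had the reverse pattern, as 1.59% of all regions did. Of the former, the region 281034 bp into the gene, had an enrichment of 6.53 to 13.3 in the 6 culture libraries and no peak in any other of the 22. Of the latter, the region 63575 bp into the gene, was in all 8 in vivo from P13 on (4.45 to 7.71), in both at E13.5 (26.2 and 10.8) and in both at DIV0 (7.32 and 13.1).

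TTX was tested in 3 pairs of cultures. *Pgr* was 498, 596 and 772 normalised counts without TTX and 250, 300 and 486 with it in the pairs 1, 2 and 3, lower in all 3 pairs with no overlap between the groups. The log2 fold change was -0.87 (SE 0.26, unadjusted p = 0.00611, adjusted p = 0.294), which edgeR without the pairing did not call, and with the pair as a replicate block it was -0.90 (SE 0.17, adjusted p = 0.029), which it called. The block ran over all 10 culture libraries by replicate number, though the numbers at DIV0 and DIV7 are not known to pair. In the fit without the block, leaving out DIV28 replicate 3 gave -0.70 (adjusted p = 0.568). The level with TTX, 345 ± 124 (SD, n = 3), was above that of DIV7, 207 ± 12.7 (n = 2), in normalised counts, but below it in TPM (3.29 ± 1.06 and 5.26 ± 0.113). *Nr3c2* was 64.9, 58.1 and 105 without and 90.2, 98.8 and 150 with TTX, higher in all 3 pairs, with overlapping groups (log2 0.55, SE 0.50, adjusted p = 0.914, and 0.580 with the block).

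For the remaining genes the pairs did not all go the same way or the counts were few. *Nr3c1* was 202, 133 and 258 without and 238, 218 and 244 with TTX (log2 0.22, SE 0.25, adjusted p = 0.952). *Fkbp5* was 111, 127 and 68.6 without and 150, 82.5 and 56.8 with TTX (log2 -0.11, SE 0.38, adjusted p = 0.989). *Esr1* was 10.4, 9.04 and 16 without and 6.44, 7.06 and 7.57 with TTX, lower in all 3 pairs with no overlap between the groups, on 59 and 24 counts (ratio 0.636, 95% counting interval 0.378 to 1.04). Without the pairing edgeR called 0 of 4 (1 at an unadjusted p under 0.05, 0 by DESeq2), against 0.209% of all genes. With the block it called 1 of 4, and over all 12890 genes tested it called 78 higher and 88 lower. In open chromatin, 3 of the 327 regions (0.917%) were in both DIV28 libraries and in neither with TTX, against 1.4% of all regions, and 3 (0.917%) had the reverse pattern, against 1.79%. With 1 library left out the former count was 7 without DIV28 replicate 1, 18 without DIV28 replicate 2 and 11 without TTX replicate 1. The latter was 16 without DIV28 replicate 1, 8 without TTX replicate 1 and 19 without TTX replicate 2. Under the rule these counts could only stay or rise.

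**Figure D4:**
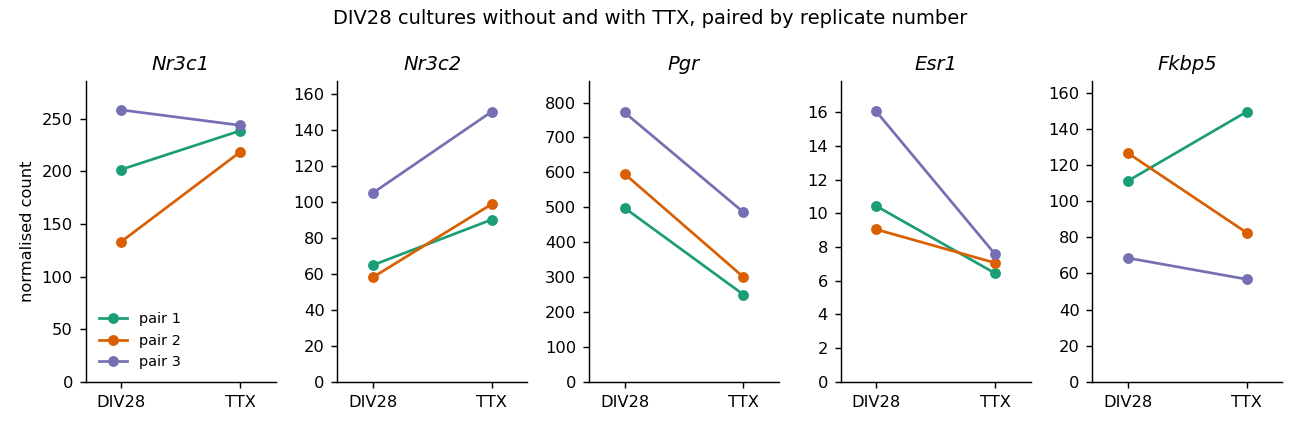
Normalised counts (y axes, linear, from 0) of each gene in the 3 DIV28 cultures without TTX and the 3 with it, lines joining the cultures of 1 pair. All 3 lines fall for *Pgr* and *Esr1* and rise for *Nr3c2*, while those of *Nr3c1* and *Fkbp5* do not all go the same way.

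The other steroid receptors changed in both directions. Of 11 listed, 7 were tested in vivo, and from E13.5 to P21 3 were higher and 2 lower, where 78.6% of all genes were called. Their median log2 change was 0.51, against 0.15 for all genes. *Paqr9*, a membrane progestin receptor family member, rose by 2.61 and *Pgrmc1*, a progesterone-binding membrane protein, changed by -2.29. *Esr2*, estrogen receptor beta, had between 0 and 58 counts per group.

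The chaperones that hold steroid receptors ready for hormone were lower at P21 than at E13.5. Of 15 (Hsp90, Hsp70 and their co-chaperones), 14 were lower and 0 higher at P21 than at E13.5, with a median of -2.03, where 78.6% of all genes were called. The course had a turn in it. From E10.5 to E13.5 7 rose and 4 fell (70% of all genes called), and from E13.5 to P4 14 fell (69.6%). From P4 to P13 8 rose and 0 fell (median 0.52, with 34.4% of all genes called), and from P13 to P21 11 fell (21.6%). *Hsp90ab1* fell from 18010 and 25627 normalised counts to between 1262 and 1628 (log2 -3.74), *Ptges3*, the p23 co-chaperone, changed by -3.13 and *Bag1* by -2.94. At DIV28 11 of the 15 were higher than at P21 and 0 lower (median 0.76, with 52.1% of all genes called), and in the contrast of the changes all 15 were called toward culture (median 3.09, with 63.4% of all genes called). The summed endothelial and erythroid markers fell over the same span from E13.5 to P21, and their part in the fall of the chaperones was not tested.

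Genes known as glucocorticoid-induced split. Of 22 listed, 16 were tested, and from E13.5 to P21 5 were higher and 9 lower, with 78.6% of all genes called (median -0.65, and -0.66 with *Angptl4*, which had 1 count at P21, set at the floor of 3 counts). *Zbtb16* rose by a log2 value of 4.98, *Klf9* by 3.66 and *Per1* by 1.99, while *Tsc22d3* changed by -0.94, *Sgk1* by -0.80 and *Cdkn1a* by -3.77. From P4 to P13 5 were higher and 5 lower, with 34.4% of all genes called. *Zbtb16*, *Klf9* and *Tsc22d3* were called higher at P13 (1.35, 0.97 and 0.86) and *Cdkn1a* lower (-2.35), while *Per1* (0.38, adjusted p = 0.314) and *Sgk1* (-0.63, adjusted p = 0.0616) were not called. *Zbtb16* was 550, 636 and 385 normalised counts at E10.5, 13.9 and 11.2 at E13.5 and 282 to 431 at P21. At DIV28 8 were higher and 6 lower than at P21, with 52.1% of all genes called (median 1.20, and 0.72 with *Angptl4* at the floor). *Cdkn1a* was higher in culture by 5.46. *Zbtb16* was lower in culture by -5.07, *Sgk1* by -1.84, *Per1* by -1.27 and *Klf9* by -0.51, and *Tsc22d3* did not pass the test (-0.19).

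Of 12 coregulators all were tested, with 3 higher and 4 lower at P21 than at E13.5 (median -0.08), fewer than the 78.6% of all genes called. *Ncoa1*, a coactivator, rose by 2.26 and *Smarca4*, a chromatin remodelling ATPase, changed by -1.26. Of 20 enzymes and transporters that make, convert or export steroids, 11 were tested, with 3 higher and 6 lower in the same comparison (median -0.95). *Hsd11b2*, which inactivates corticosterone and so shields the mineralocorticoid receptor from it in the kidney, had 239 counts in all at E10.5, 36 at E13.5 and between 0 and 5 in every other group. *Hsd11b1*, which regenerates corticosterone, had between 0 and 16 counts per group. *Abcb1a*, a drug and steroid exporter of vascular endothelium, went from 492 and 791 normalised counts at E13.5 to between 8.78 and 24.9 at P21 (log2 -5.27), as the endothelial markers did.

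**Figure D5:**
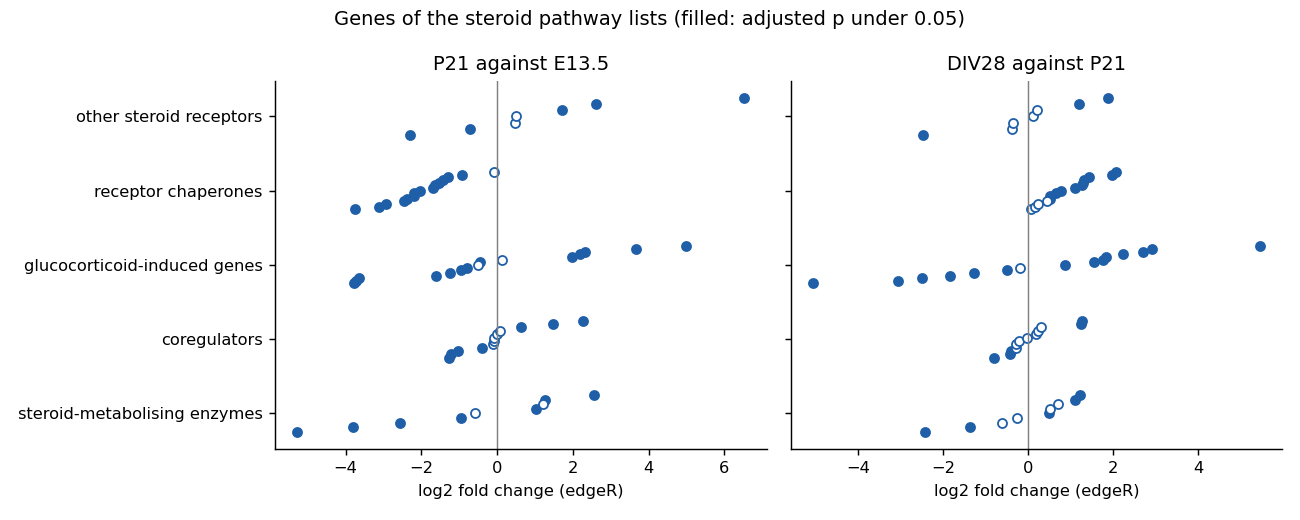
Log2 fold change (x axis) of each tested gene (points) of the 5 lists, for P21 against E13.5 and for DIV28 against P21, filled where called. Genes with at most 3 counts in 1 of the 2 groups are left out. The 15 chaperones lie left of 0 with age (1 of them, *Ppid* at -0.08, not called) and right of 0 at DIV28 against P21, where 11 were called.

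Across the 18 in vivo libraries the levels of *Nr3c2*, *Pgr* and *Esr1* ran together, with Pearson's r of log2(normalised count + 1) of 0.98 for each pair. *Nr3c1* correlated with these 3 at 0.82 to 0.89, and *Fkbp5* with the 4 receptors at -0.55 to -0.35. These values describe libraries that share ages and depth. The genes with a name among the 5 most like each gene were *Adam22* (0.994) for *Nr3c2*, *Nalcn* (0.996) for *Pgr* and *Dnah9* (0.984) for *Esr1*. The others were genes known by a model or clone name, led by *Gm42766* (0.998) for *Nr3c2*, *9330162G02Rik* (0.997) for *Pgr* and *Gm41414* (0.985) for *Esr1*. For *Nr3c1* they included *Ppp1r9a* (0.988), *Mef2a* (0.983), *Sgms1* (0.982) and *Zfp40* (0.981). For *Fkbp5* the likeness was lower, with *Angptl2* (0.938), *Fzd10os* (0.928), *Gnpda1* (0.922), *Cep97* (0.906) and *Lrrc20* (0.877).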

How the data were processed

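Per the submitters' processing notes, RNA-seq reads were trimmed with Trim Galore, aligned to mm10 with STAR 2.5.2b and quantified with RSEM 1.3.0, whose default settings, used by the authors, ignore strand. The authors deposited expected counts and TPM per gene and library. ATAC-seq reads were aligned with BWA, duplicates were removed with SAMtools and MACS2 2.2.7.1 called peaks in each library alone at a p limit of 0.01. The deposited peak lists give the fold enrichment as a ratio and the −log10 p and −log10 q. The depth behind the peaks is unknown.

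After rounding of the expected counts and a filter that asked for 5 CPM or more in all replicates of any 1 group, edgeR 4.0.16 (R 4.3.3) fitted quasi-likelihood models with TMM factors in 3 fits, over the spinal cord ages (18 libraries), over the cultures (10) and over all but the TTX cultures (25). Genes were named by a rule: the 5 genes, the up to 3 called genes of each list with the largest change from E13.5 to P21, 7 further genes whatever their values, and the 5 genes most like each of the 5. The exceptions, *Esr2*, *Ppid*, *Angptl4* and *Gm10649*, were chosen after their values were seen. A few genes that the rule names are not reported here. The 5 genes and all lists were chosen with earlier results of these data known. Alternatives were DESeq2 1.42.0, its size factors, no filter, other limits, fewer libraries and a replicate block. The study's sample list pairs the DIV28 cultures with the TTX cultures of the same number, and paired libraries deviated together (r of 0.582, 0.505 and 0.665 between their deviations, over 12890 genes). Replicates are pools of animals in vivo. In vitro the paper calls the DIV0, DIV7 and DIV28 RNA libraries biological replicates, while the labels do not say whether they are separate cultures. The p-values measure the spread between these samples, part of which may be technical. The test was checked on simulated data. Start sites and gene positions came from GENCODE as given with the GRCm38 reference, and printed sequence from the RefSeq assembly of that build.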

Additional observations from a re-analysis of the deposited data

Results flagged for a closer look

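The change of *Nr3c1* from DIV0 to DIV28 exceeded its change from E13.5 to P21 by 3.45 on the log2 scale, in a contrast that tests this difference directly (edgeR, adjusted p = 2.35e-07). For *Pgr* the difference was 4.10 (adjusted p = 1.43e-05). Without the library titled DIV0 replicate 3 they were 3.22 and 3.92, both called, and with it placed at DIV0 they were 0.72 and -1.78, neither called (adjusted p = 0.523 and 0.325). In each case the DIV0 level was below the E13.5 level, while in normalised counts the DIV28 and P21 levels were close for *Nr3c1* and the former was higher for *Pgr*. The E10.5 means, 8.22 for *Nr3c1* and 2.68 for *Pgr*, were in turn below those of DIV0 (18.2 and 4.91). The excess is thus stated for E13.5 as the start, and a contrast that starts at E10.5 was not tested. In mean TPM it was *Pgr* that was close, with 5.94 at DIV28 and 5.97 at P21, and *Nr3c1* was lower at DIV28 (2.21 and 4.72).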

How the results depend on the processing

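Of the counts of called genes and of regions, 97 of 113 stayed within 1.5 times the reported count under settings other than leaving out a library. When 1 library was left out 80 of 91 did, though a count of regions could then only stay or rise. Of the log2 fold changes 327 of 357 and 295 of 320 kept their direction and side of the threshold. In the fit of the compared groups alone 2 genes were called from E10.5 to E13.5, where only 2 passed the filter, and 2 from E13.5 to P21. With the study's limits (unadjusted p under 0.001 and at least 2-fold) 3 were called from E10.5 to E13.5 and 1 from P4 to P13. With no filter *Nr3c1* changed by -0.06 from E13.5 to P21. With the library titled DIV0 replicate 3 placed at DIV0, 0 of the genes described here were called from DIV0 to DIV7 (*Nr3c2* -0.15, *Pgr* -0.35). The count was 0 from DIV7 to DIV28 (*Nr3c1* -0.11), 2 for DIV28 against P21 (*Nr3c1* -0.14) and 1 in the contrast of changes (*Pgr* -1.78, *Esr1* -2.28). The cause of these shifts was not tested, apart from the smaller sets of genes and libraries that the settings name.

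With the replicate block, edgeR called 1 of 4 genes for TTX, where the number marks a pair of cultures. Over all 12890 genes tested that fit called 78 higher and 88 lower with TTX. From DIV7 to DIV28, where the numbers are not known to pair the cultures (correlations 0.029 and 0.046), the block gave 2 calls and *Nr3c1* at -0.04. In the other comparisons the block moved no count of called genes by over 1.5 times.

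With 1 library left out, called genes ranged from 4 to 5 (E10.5 to E13.5), 5 to 5 (E13.5 to P4), 1 to 2 (P4 to P13), 3 to 4 (E13.5 to P21), 2 to 3 (DIV0 to DIV7), 0 to 1 (DIV7 to DIV28), 3 to 4 (DIV28 against P21) and 2 to 3 (contrast of changes), and were 0 throughout from P13 to P21, P21 to P56, P56 to 2 years and for TTX. The log2 change of uncalled genes ranged across 0 for *Nr3c2* (-0.06 to 0.12) and *Pgr* (-0.25 to 0.01) from P21 to P56, *Esr1* from P56 to 2 years (-0.30 to 0.12), *Nr3c1* from DIV7 to DIV28 (-0.11 to 0.34) and against P21 (-0.15 to 0.31), *Fkbp5* with TTX (-0.55 to 0.15), and *Nr3c2* (-1.51 to 4.88) and *Esr1* (-0.41 to 3.93) in the contrast of changes.

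Among regions, 20 were gained and 10 lost from E13.5 to P21 with the 100000 highest peaks per library, 27 were gained with −log10 q of at least 2, 17 were at P21 and not DIV28 with that limit, and 5 (within 50 kb) and 0 (that limit) were at DIV28 and not with TTX. With 1 library left out the counts were 47 to 58 gained, 19 to 31 lost, 31 to 47 at P21 and not DIV28, 29 to 59 the reverse, 3 to 18 at DIV28 and not TTX and 4 to 19 the reverse. Since fewer libraries then had to meet the rule, these counts could not fall, and the ranges do not show how far they might be too high. Requiring a peak to span most of its merged region, a setting chosen after seeing the data, gave 34 gained and 12 lost. Few counts limit *Esr1* at E10.5 and in culture and *Nr3c2* at DIV0, and 2 libraries per group limit the regions.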
